A study of Mus musculus with 4 samples.

Results

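Irs2, Pik3ip1, Sesn1, Sesn3, Cited2, Ccng2 and Txnip are genes that FOXO transcription factors are known to activate. They were taken by their symbols from the deposited table of single luminal mammary cells, which holds 52636 genes, and all 7 were present with UMIs (unique molecular identifiers, each standing for 1 captured transcript) in every library. Luminal epithelial cells were sorted from the thoracic and abdominal mammary glands of 6-week-old female C57BL/6N mice, and 3 mice of a genotype were combined in 1 pool before sorting. The control pool was Erbb3+/+;MMTV-Cre (called WT) and the other pool was Erbb3 V943R/V943R;MMTV-Cre (called V943R), so both carried the MMTV-Cre transgene, which the mouse mammary tumor virus promoter drives in mammary epithelium. In the V943R mice both Erbb3 alleles were conditional, and Cre exchanged a cassette of wild-type cDNA for a mutated exon that changes the activator face of the ERBB3 kinase domain. Cells in which Cre did not act keep the wild-type cassette, and the files do not mark them. Each pool gave 2 libraries, which share the mice, so the spread between libraries is technical, there is no test between genotypes, and all intervals given are 95% intervals that cover counting error only.

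ERBB3 binds the regulatory subunit of PI3K through its phosphorylated tail and is the ErbB receptor most closely coupled to that kinase. PI3K activates AKT, AKT phosphorylates FOXO1, FOXO3 and FOXO4, and the phosphorylated factors leave the nucleus, so genes that depend on FOXO are held at a low level while the pathway is active. The 7 genes act at several levels of this circuit: Irs2 couples the insulin and IGF receptors to PI3K, Pik3ip1 is a membrane protein that inhibits PI3K, Sesn1 and Sesn3 are stress-responsive regulators of mTORC1, Ccng2 is an atypical cyclin of resting cells, Cited2 is a CBP/p300-binding co-regulator that limits HIF1A, and Txnip is an arrestin-like protein that binds thioredoxin and lowers glucose uptake.

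Txnip stood apart from the other genes. Its level was higher in V943R than in WT cells in each class of luminal cell and in 11 of 11 luminal clusters, with the greatest difference in luminal progenitors, 1.91-fold. The other 6 differed less between genotypes over all cells. Irs2 and Sesn3 were a little higher in both V943R libraries than in both WT libraries, Pik3ip1 was lower, and the libraries of Sesn1, Cited2 and Ccng2 overlapped. Of 16450 genes with enough UMIs, 31.8% were higher and 22.5% lower in this way. With the same cluster shares in both genotypes, the log2 ratios of V943R over WT were 0.14 for Irs2, 0.06 for Sesn3 and -0.11 for Pik3ip1.

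The promoters of the 7 genes were searched for a FOXO motif (GTAAACA), an insulin response element (CAAAACA) and an E box (CACGTG), each on both strands, in the window from 250 bases before to 50 bases after each start given by RefSeq on GRCm38.p6. The E box was included because glucose-sensing factors bind it. Only these exact letters were searched, so glucose-response sites written otherwise were not looked for, in Txnip or in the other genes. Of all 32851 promoter windows of that table, 3.65% held the FOXO motif, 6.28% the insulin response element and 7.15% the E box. The windows that held a motif are shown because they are where these promoters differ in the motifs searched. The capitals mark the motif, and each window is written along its gene's strand.
Txnip, FOXO motif, chr3:96557825-96557853, plus strand: ttggaggcctgGTAAACAagggccaagta
Sesn1, FOXO motif on the opposite strand, chr10:41810585-41810613, plus strand: gaaccttctacTGTTTACcagccttttgg
Irs2, insulin response element on the opposite strand, chr8:11008949-11008977, minus strand: gagtcacgtgtTGTTTTGctcttagttca
Irs2, E box, chr8:11008957-11008984, minus strand: taacgcagagtCACGTGttgttttgctc
Ccng2, insulin response element, chr5:93267546-93267574, plus strand: cgtcgcagactCAAAACAaaaacaagggg
Cited2, E box, chr10:17723064-17723091, plus strand: cagccgctgcgCACGTGcagcgcggact

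The FOXO motif of Txnip lay 121 to 115 bases before the start, and that of Sesn1 lay 23 to 29 bases after it, within the transcript. The elements of Irs2 lay 37 to 31 and 44 to 39 bases before a start that falls outside the Irs2 gene model of GENCODE M21. That of Ccng2 lay 16 to 10 bases and that of Cited2 153 to 148 bases before the start. The windows of Pik3ip1 and Sesn3, and that of another Sesn1 start, held none of the 3 motifs in these letters. A match is a description of the letters and not evidence of binding.

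Over its whole gene, Txnip spans chr3:96557957-96561883 on the plus strand. The upstream stretch of Txnip, chr3:96557707-96557956, is shown because Txnip differed most between genotypes among the 7 genes over all cells. The FOXO motif is in capitals.
Txnip, 250 bases before the start: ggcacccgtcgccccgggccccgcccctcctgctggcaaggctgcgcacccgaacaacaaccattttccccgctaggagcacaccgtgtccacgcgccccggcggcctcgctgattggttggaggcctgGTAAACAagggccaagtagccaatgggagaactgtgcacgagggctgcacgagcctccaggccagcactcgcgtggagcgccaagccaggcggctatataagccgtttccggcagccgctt

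The table held 32439 cells, between 6849 and 9627 in each library, with a median of 3154 to 4027 UMIs per cell. Between 71 and 111 cell barcodes were shared by any pair of libraries, and no library was set aside. The authors' labels divided the cells into luminal progenitors (LP, clusters 1 and 2), luminal intermediate cells (LI, cluster 3), mature luminal cells (ML, clusters 4 to 11) and 2 rare groups (clusters 12 and 13). The luminal progenitor markers Kit, Elf5, Aldh1a3, Cd14 and Csn3 were highest in LP and the mature markers Prlr, Esr1, Pgr, Foxa1, Prom1 and Cited1 highest in ML, with LI between them in both lists. Levels are given as CPM, the summed UMIs of a gene with the total UMIs of the same cells scaled to 1000000. Erbb3 itself was at 60.9 and 63.3 CPM in the WT libraries and at 29.8 and 30.8 CPM in the V943R libraries, 2.05-fold lower. It was lower in both V943R libraries in 11 of 11 luminal clusters. The paper reports a smaller decrease of Erbb3 mRNA in the mutant sample. The wild-type cassette of the conditional allele ends in human growth hormone sequence. How far cells that keep it lower the Erbb3 count of 3' libraries was not tested.

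Txnip was at 86.9 and 98.1 CPM in the WT libraries and at 135 and 146 CPM in the V943R libraries. The libraries of a genotype lay close together and those of the genotypes did not overlap. The log2 ratio of V943R over WT was 0.60 (0.56 to 0.65), 1.52-fold, from 6774 UMIs in WT and 8781 in V943R. Among 16449 genes with enough UMIs it ranked 508 from the highest ratio. The fold stood just above 1.5: without WT library A it was 1.43 and without V943R library B it was 1.46.

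In LP cells the Txnip level was 147 and 149 CPM in the WT libraries and 270 and 294 CPM in the V943R libraries. Here the V943R libraries stood far above a narrow WT pair. The log2 ratio was 0.94 (0.84 to 1.04), rank 40 of 11219 genes, and leaving out 1 library at a time kept it between 0.87 and 0.99. In LI cells the values were 117 and 154 CPM in WT against 179 and 178 CPM in V943R, which is 0.40 (0.28 to 0.52) on the log2 scale. In ML cells they were 73.5 and 83.4 CPM against 104 and 111 CPM, which is 0.45 (0.39 to 0.51). Leaving out 1 library at a time gave 0.21 to 0.61 in LI and 0.37 to 0.55 in ML, beyond these counting intervals. The libraries did not overlap in either class. The log2 ratio in LP exceeded that in ML by 0.49 (0.37 to 0.60) and that in LI by 0.54 (0.39 to 0.69), whereas LI and ML differed by -0.05 (-0.18 to 0.08).

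**Figure D1:**
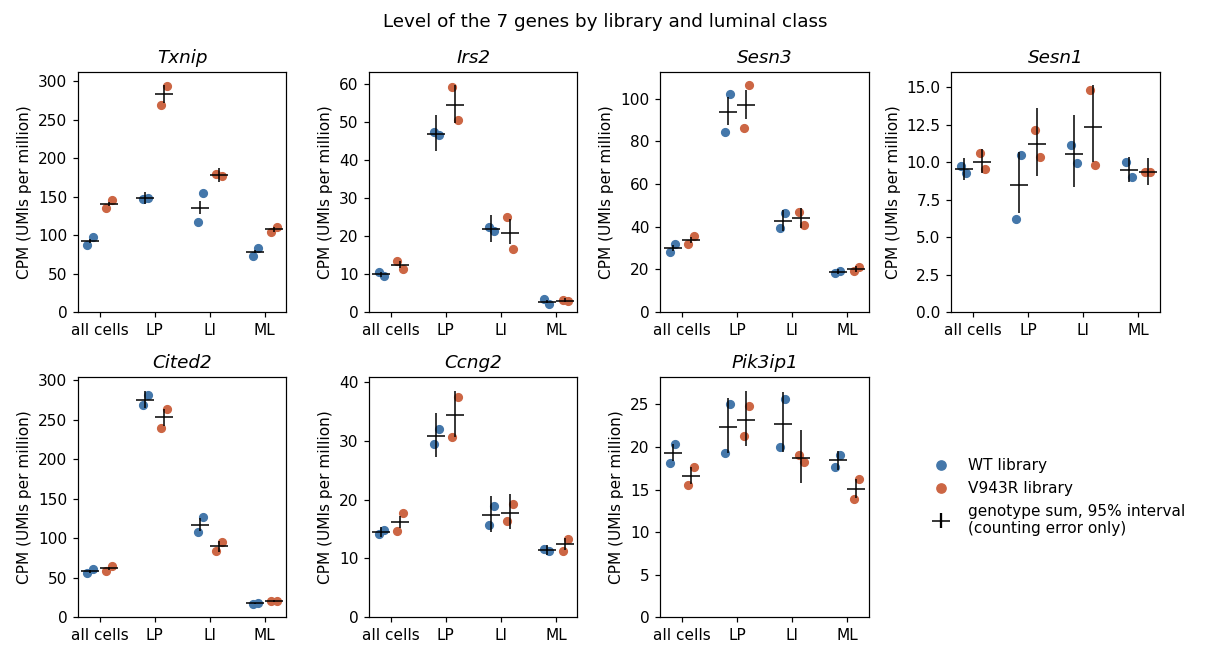
Level in CPM (vertical axis, from 0) of each gene in all cells, LP, LI and ML (horizontal axis); each point is 1 library, WT in blue and V943R in orange, and each black bar is the summed level of a genotype with its 95% counting interval. Both V943R points of Txnip lie above both WT points in every class, widest in LP, while those of Cited2 lie below in LP and LI and above in ML.

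Cluster by cluster, the Txnip ratio was greatest in cluster 1, the non-cycling LP cells, where 161.6 and 169.9 CPM in the WT libraries stood against 312.5 and 334.5 CPM in the V943R libraries, and the log2 ratio was 0.97 (0.86 to 1.07). In cluster 2, the cycling LP cells, the log2 ratio was 0.72 (0.45 to 1.00). Among mature clusters it ran from 0.31 (-0.16 to 0.79) in cluster 9 to 0.78 (0.66 to 0.91) in cluster 10. Both V943R libraries were above both WT libraries in 10 of the 11 clusters, cluster 9 being the exception, in which 127.5 CPM in WT library B exceeded 116.8 CPM in V943R library A. Of 9688 genes with at least 1000 UMIs, 1.56% were above in both V943R libraries in at least 10 luminal clusters.

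The same difference was seen in the number of cells with a Txnip UMI. Thinned to 1000 UMIs per cell, 12.3% (11.2 to 13.5) of WT LP cells and 21.8% (20.3 to 23.3) of V943R LP cells had at least 1, and without thinning the shares were 23.0% and 37.9%. Thinning left out 32 WT and 173 V943R cells with fewer UMIs. Cells with 3 or more thinned UMIs made up 1.05% of WT and 2.75% of V943R LP cells. In ML the thinned shares were 7.42% and 9.49%. Txnip was also found in the rare clusters 12 and 13, in which 30.2% and 6.02% of WT cells had a thinned UMI at median depths of 1985 and 1899 UMIs, so no cell group lacked it and the level of free RNA could not be read from this gene.

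Txnip was lower in cycling than in non-cycling cells in both genotypes. In WT, cluster 2 held 88.7 CPM and cluster 1 held 166.0 CPM, which makes a log2 ratio of -0.91 (-1.14 to -0.67). Cycling ML cells (clusters 5 and 6) held 50.2 CPM and the other ML cells 84.7 CPM, with a log2 ratio of -0.75 (-0.89 to -0.62). Every library gave the same direction, from -1.27 to -0.64 in LP and from -0.93 to -0.70 in ML. These clusters were drawn from the same values, so this is a description.

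Irs2 marked the progenitor side of the lineage. In WT its level was 16.9-fold higher in LP than in ML cells, with 47.3 and 46.4 CPM in the LP cells of the WT libraries and 3.35 and 2.23 CPM in their ML cells. LI cells lay between, at 22.3 and 21.2 CPM. The order LP, LI, ML held in each of the 4 libraries, the lowest log2 ratio of LP over ML being 3.82. A thinned Irs2 UMI was found in 5.05% of WT LP cells and in 0.25% (0.18 to 0.35) of WT ML cells. The share in WT cells of cluster 13 was 1.20% (0.03 to 6.53), but this rests on 1 of 83 cells, so the level of free Irs2 RNA in ML cells could not be set.

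Between genotypes, Irs2 was at 10.5 and 9.37 CPM in WT and 13.4 and 11.5 CPM in V943R over all cells. The V943R libraries were above the WT libraries, by a log2 ratio of 0.33 (0.18 to 0.47). Part of the all-cell value moved with the makeup of the pools, since LP cells were 3181 of 18638 WT cells and 3123 of 13801 V943R cells. With the same cluster shares in both genotypes the log2 ratio was 0.14. Within LP cells the V943R libraries were at 59.2 and 50.3 CPM, with 0.22 (0.02 to 0.41) on the log2 scale. Leaving out 1 library at a time gave 0.10 to 0.34 there. In cluster 1 the libraries overlapped, at 0.16 (-0.06 to 0.37). In cluster 2 both V943R libraries were above, at 0.49 on 62 and 88 UMIs. The libraries also overlapped in LI and in ML.

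Pik3ip1 had the opposite sign. Over all cells it was at 18.2 and 20.4 CPM in WT and at 15.6 and 17.6 CPM in V943R, the only one of the 7 with both V943R libraries below. The log2 ratio was -0.22 (-0.33 to -0.10), and Pik3ip1 stood in rank 15063 of 16449 from the highest. In ML cells it was at 17.7 and 19.1 CPM in WT and at 13.9 and 16.2 CPM in V943R. Both V943R libraries were below in LI cells, with a log2 ratio of -0.28 (-0.61 to 0.05), and in ML cells, at -0.29 (-0.43 to -0.15), whereas the LP value was 0.05 (-0.24 to 0.35) with overlapping libraries. Within ML, both V943R libraries were below in clusters 7 and 8, in which the log2 ratios were -0.44 and -0.37, while in cluster 10 the ratio was 0.21 with overlapping libraries. Cluster 11, which held 2863 WT and 670 V943R cells, had the highest Pik3ip1 level of any luminal cluster, 30.1 CPM in WT and 32.8 CPM in V943R, so its smaller share entered the ML value. Outside cluster 11 the ML log2 ratio was -0.19 (-0.35 to -0.03), and with the same cluster shares in both genotypes it was -0.11 in ML and -0.11 over all cells.

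Like Txnip, Pik3ip1 was low in cycling cells. Cluster 2 held 9.07 CPM against 26.3 CPM in cluster 1 of WT, and cycling ML cells held 9.29 CPM against 20.4 CPM in the other ML cells. All 4 libraries showed this direction in both classes. Unlike Irs2 it was nearly level across classes, with LP only 1.21-fold above ML in WT.

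**Figure D2:**
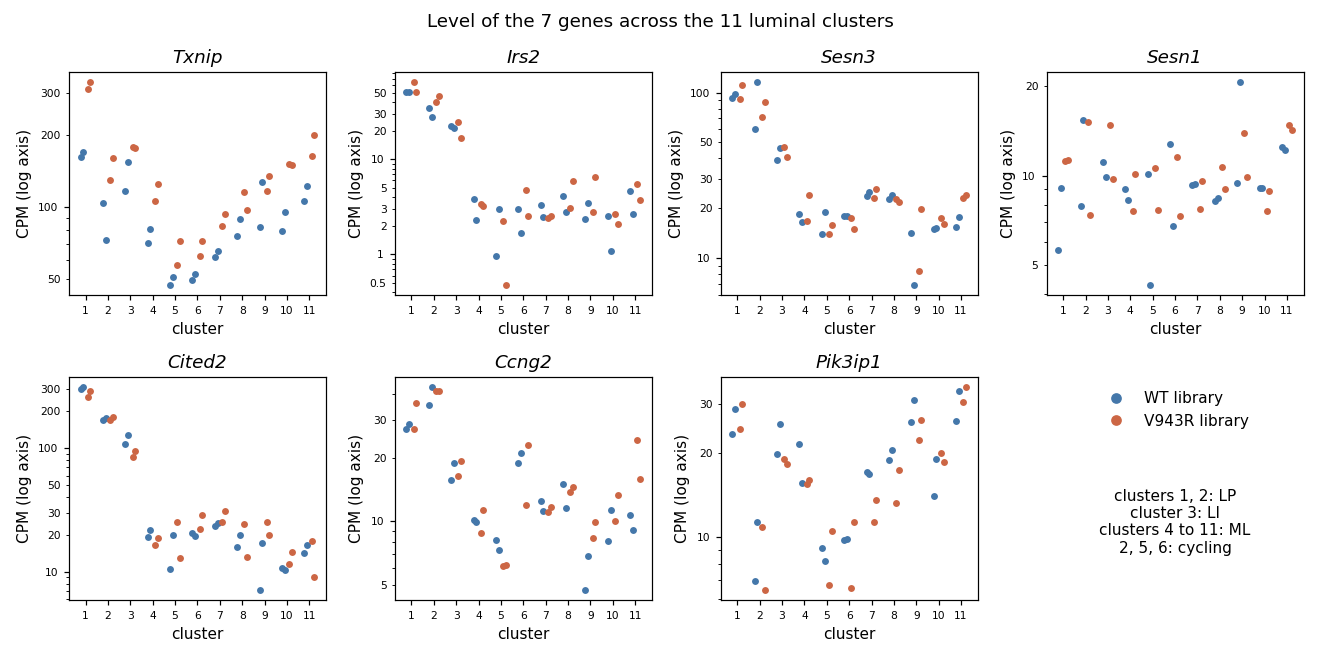
Level in CPM (vertical axis, log scale) of each gene in the 11 luminal clusters (horizontal axis) of the 4 libraries, WT in blue and V943R in orange. Irs2, Sesn3 and Cited2 are highest in clusters 1 to 3, Pik3ip1 is highest in cluster 11, and Txnip and Pik3ip1 are low in the cycling clusters 5 and 6.

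The sestrins differed from each other. Sesn3 was a progenitor gene, 4.97-fold higher in LP than in ML cells of WT, with 84.5 and 102 CPM in the LP cells of the WT libraries. Its level over all cells was 28.4 and 31.7 CPM in WT and 31.8 and 35.9 CPM in V943R. The libraries nearly touched, and the log2 ratio was 0.17 (0.09 to 0.26), falling to 0.06 with the same cluster shares in both genotypes. Within LP the Sesn3 log2 ratio was 0.05 (-0.09 to 0.19), and -0.12 to 0.20 with 1 library left out at a time. That of Txnip in LP was 0.94. The largest ratio among the ML clusters was that of cluster 11, 15.4 and 17.8 CPM in WT against 23.2 and 24.1 CPM in V943R, with a log2 ratio of 0.50 (0.04 to 0.95).

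Sesn1 was flat across the lineage, with LP 1.12-fold below ML in WT and 9.75 and 9.29 CPM over all cells of the WT libraries. In V943R it was at 10.6 and 9.51 CPM, so the libraries overlapped, and the log2 ratio was 0.08 (-0.08 to 0.24). In LP the level was 6.19 and 10.5 CPM in WT and 12.1 and 10.4 CPM in V943R. The low value of WT library A set the LP log2 ratio of 0.40 (-0.05 to 0.86); without that library it was 0.09. In cluster 1 it was at 5.62 and 9.12 CPM in WT and at 11.2 and 11.3 CPM in V943R, just under 1.5-fold, on 49 and 75 UMIs. On 72 and 97 UMIs in LP the interval of Sesn1 runs from equal levels to a ratio near that of Txnip.

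Ccng2 was higher in LP than in ML cells by 2.69-fold in WT and, unlike Txnip, not lower in cycling LP cells: cluster 2 held 39.3 CPM and cluster 1 held 28.2 CPM. Over all cells it was at 14.1 and 14.8 CPM in WT and at 14.6 and 17.7 CPM in V943R. The overlap came from V943R library A, and the log2 ratio of 0.16 (0.04 to 0.29) was 0.01 without V943R library B. Of the luminal clusters, cluster 11 had the largest ratio: 10.7 and 9.12 CPM in the WT libraries and 24.1 and 15.8 CPM in the V943R libraries. Both V943R values lay above both WT values, though they rested on 26 and 21 UMIs. In cluster 5 both V943R libraries were below instead, with a log2 ratio of -0.32 (-1.14 to 0.47). In cluster 11 the log2 ratio was 0.98 (0.44 to 1.502), 0.95 (0.42 to 1.49) above that of the other ML cells. Without WT library A or WT library B the gene fell under the minimum of 50 UMIs that the calls below use.

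Cited2 pointed in opposite directions in different classes. Like Irs2 it was a progenitor gene, with 268 and 281 CPM in WT LP cells, 108 and 127 CPM in LI and 16.4 and 18.7 CPM in ML. In V943R the LP level was 240 and 264 CPM and the LI level 84.3 and 95.5 CPM, both below WT with no overlap, at log2 ratios of -0.12 (-0.21 to -0.04) and -0.38 (-0.53 to -0.24). Within LP the lower level was that of cluster 1, at -0.15 (-0.24 to -0.05), while cluster 2 stood at 0.01 with overlapping libraries. In ML the V943R level was 20.7 and 20.5 CPM, above WT, at 0.23 (0.10 to 0.36), and at 0.14 with the same cluster shares in both genotypes. The ML clusters were not uniform: in cluster 4 both V943R libraries were below WT, with a log2 ratio of -0.21 (-0.56 to 0.14), and in cluster 11 the ratio was -0.25 with overlapping libraries. The summed level of the 5 luminal progenitor markers was also lower in both V943R libraries in LP, at 3991 and 4268 CPM in WT and 3758 and 3859 CPM in V943R, and in LI, with log2 ratios of -0.12 and -0.30, and it was 0.06 in ML. Without Csn3, the most abundant of them, the libraries overlapped in LP, at a log2 ratio of -0.04, and in LI the ratio was -0.22 with both V943R libraries below. In LP and in LI, 3 of the 5 (Aldh1a3, Cd14 and Csn3) were below in both V943R libraries, whereas Kit was above in LP and overlapped in LI, and Elf5 overlapped in both. In ML Elf5 was above in both V943R libraries, at a log2 ratio of 0.26 (0.13 to 0.38). Aldh1a3 and Cd14 were below in both there, at -0.22 and -0.03, and Kit and Csn3 overlapped. The part of these markers in the Cited2 values was not tested. The log2 ratio of Cited2 in LP minus that in ML was -0.35 (-0.50 to -0.19), and that in LI minus that in ML was -0.61 (-0.80 to -0.42). Over all cells these opposed each other: the libraries overlapped at 55.5 and 60.6 CPM in WT and 58.4 and 65.2 CPM in V943R, and the log2 ratio of 0.09 became -0.11 with the same cluster shares in both genotypes.

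**Figure D3:**
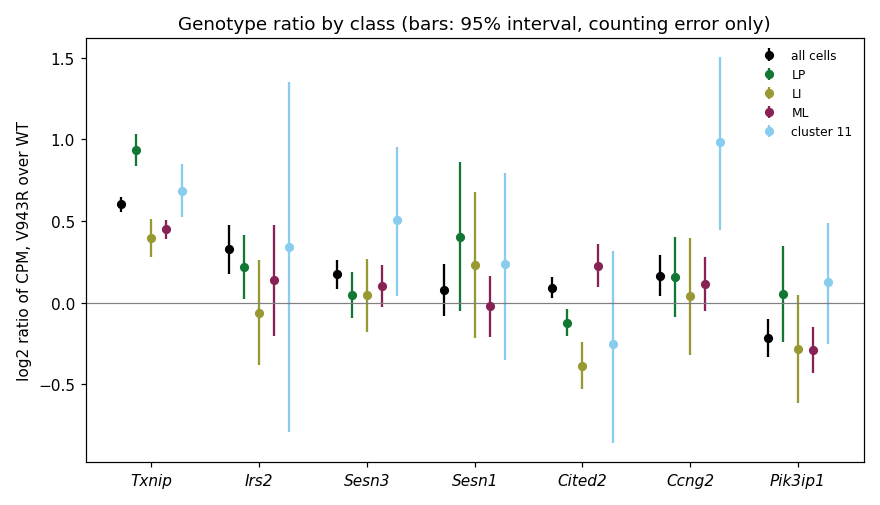
Log2 ratio of CPM, V943R over WT (vertical axis), of each gene in all cells, LP, LI, ML and cluster 11; bars are 95% counting intervals, and 0 means equal levels. Txnip is above 0 in all 5, Cited2 is below 0 in LP and LI and above 0 in ML, and Ccng2 stands out in cluster 11.

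To read these values against all genes, a gene with at least 50 UMIs in either genotype was called when its CPM differed by 1.5-fold or more and both V943R libraries lay beyond both WT libraries, and a looser call dropped the fold. Over all cells 1 of the 7, Txnip, was called higher and 0 were called lower, where 3.23% of 16450 genes were called higher and 1.17% lower. By the looser call 3 were higher (Txnip, Irs2, Sesn3) and 1 lower (Pik3ip1), where 31.8% and 22.5% of all genes were, so the looser count is close to the background. The median log2 ratio of the 7 was 0.16 and that of all genes 0.02.

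In LP, 1 of the 7 was called higher (Txnip) against 2.23% of all genes, and 0 lower against 0.606%. The looser call took 2 higher and 1 lower, against 23.1% and 18.1%. In LI, 0 were called either way, against 2.83% higher and 1.03% lower, and the looser call took 1 higher and 2 lower, against 23.2% and 22.5%. In ML, 0 were called either way, against 2.86% and 1.57%, and the looser call took 3 higher and 1 lower, against 27.6% and 26.7%.

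In cluster 11, 6 of the 7 had enough UMIs, Irs2 being under the minimum. Txnip, at 106 and 122 CPM in WT and 164 and 201 CPM in V943R, and Ccng2 were called higher and 0 lower, against 2.70% and 3.17% of all genes. The looser call took 4 higher and 0 lower, against 24.9% and 18.7%. The Txnip call there was 1.61-fold and dropped to 1.43-fold without V943R library B.

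Of the other listed genes known to be activated by FOXO, none was called higher over all cells. Of 31 listed genes in the table, 27 had enough UMIs over all cells, and 1 was called lower, Erbb3, which is itself on the list and is the mutated gene. By the looser call 10 were higher and 8 lower, beside 31.8% and 22.5% of all genes, and the median log2 ratio was 0.04. In LP, Klf2, a transcription factor that is both a FOXO target and an early-response gene, was also called lower, at 252.7 CPM in WT and 149.4 CPM in V943R. In ML, Ppargc1a, a coactivator of mitochondrial genes, was called lower as well; without either WT library it fell under the minimum of UMIs. In cluster 11 the call went the other way for Bbc3, a pro-apoptotic gene, at 15.2 and 12.97 CPM in WT and 21.3 and 25.6 CPM in V943R, 1.69-fold higher. Both V943R libraries were below for Bbc3 over all cells and in ML, at log2 ratios of -0.12 and -0.16, and its libraries overlapped in LP and LI. Of the growth arrest genes on the list, Cdkn1a, Cdkn1b and Rbl2 stood at log2 ratios of 0.08, 0.02 and -0.04 over all cells. Gadd45a was at 131 and 135 CPM in WT and 96.5 and 91.9 CPM in V943R, a ratio of -0.50 on that scale, with both V943R libraries below in LP, LI and ML as well. The insulin receptor Insr stood at 0.18. These 5 were named after their values were seen.

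Over all cells the FOXO factors themselves differed less than 1.5-fold between genotypes. Foxo1 was at 25.6 CPM in WT and 28.02 CPM in V943R, Foxo3 at 41.9 and 45.2 CPM, and Foxo4 at 6.31 and 7.37 CPM, with log2 ratios of 0.11 to 0.22. The looser call took 3 of these 3 as higher over all cells, where it took 31.8% of all genes. Foxo1 was at 83.2 CPM in LP and 15.1 CPM in ML cells of WT, so the larger LP share of V943R cells entered its all-cell value. In LP and in LI the looser call took 2 of the 3 as higher, beside 23.1% and 23.2% of all genes, and 0 as lower, beside 18.1% and 22.5%. In ML it took 0 as higher, beside 27.6% of all genes, and 1 as lower, Foxo1, with a log2 ratio of -0.18, beside 26.7%. In cluster 11, Foxo4 was called higher, at 6.48 and 4.66 CPM in WT and 11.1 and 9.77 CPM in V943R, on 52 and 25 UMIs, and without either WT library it fell under the minimum of UMIs. Messenger levels carry no information on where the proteins were in the cell.

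Of the genes of the PI3K and AKT pathway, 25 of 26 had enough UMIs, and 1 was called higher over all cells: Sgk1, an AKT-related kinase, at 134 CPM in WT and 210 CPM in V943R, 1.57-fold, and between 1.51-fold and 1.62-fold with 1 library left out at a time. Sgk1 was also called in LI, ML and cluster 11, the LI call being lost without WT library A, and in cluster 11 so was Sgk3, which lost the call without either WT library or V943R library B. By the looser call 12 were higher and 1 lower over all cells, beside 31.8% and 22.5% of all genes, with a median log2 ratio of 0.10. In LP 5 of 23 were higher and 4 lower, beside 23.1% and 18.1%, with a median of 0.004. In LI 5 of 21 were higher and 7 lower, beside 23.2% and 22.5%, with a median of 0.03. In ML 10 of 25 were higher and 1 lower, beside 27.6% and 26.7%, with a median of 0.06. In LI, Deptor, which inhibits mTOR, was called lower, and it lost the call without V943R library A. Genes that AKT and mTORC1 are known to raise, such as Fasn and Slc2a1, were called in neither direction over all cells. The looser call took 7 of 12 as higher and 0 as lower there, beside 31.8% and 22.5% of all genes, with a median of 0.14. In LP it took 5 as higher and 3 as lower, beside 23.1% and 18.1%, with a median of 0.10.

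Among 9 relatives of the 7 genes, 0 were called over all cells and 0 in LP. By the looser call 4 were higher and 1 lower over all cells, beside 31.8% and 22.5% of all genes. In LP 5 were higher and 3 lower, beside 23.1% and 18.1%. Arrdc4, like Txnip an arrestin-family gene that responds to glucose, was at 52.3 CPM in WT and 51.8 CPM in V943R. In LP it was at 122 and 98.3 CPM, with both V943R libraries below. Of the other arrestin relatives in LP, Arrdc2 was at 6.81 CPM in WT and 10.02 CPM in V943R and Arrdc3 at 41.3 and 46.3 CPM, both with both V943R libraries above, and Arrdc1 was at 164 and 166 CPM with overlapping libraries. Over all cells Irs1 had a log2 ratio of 0.47, Cited4 0.50, Cited1 -0.50 and Sesn2 0.18.

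**Figure D4:**
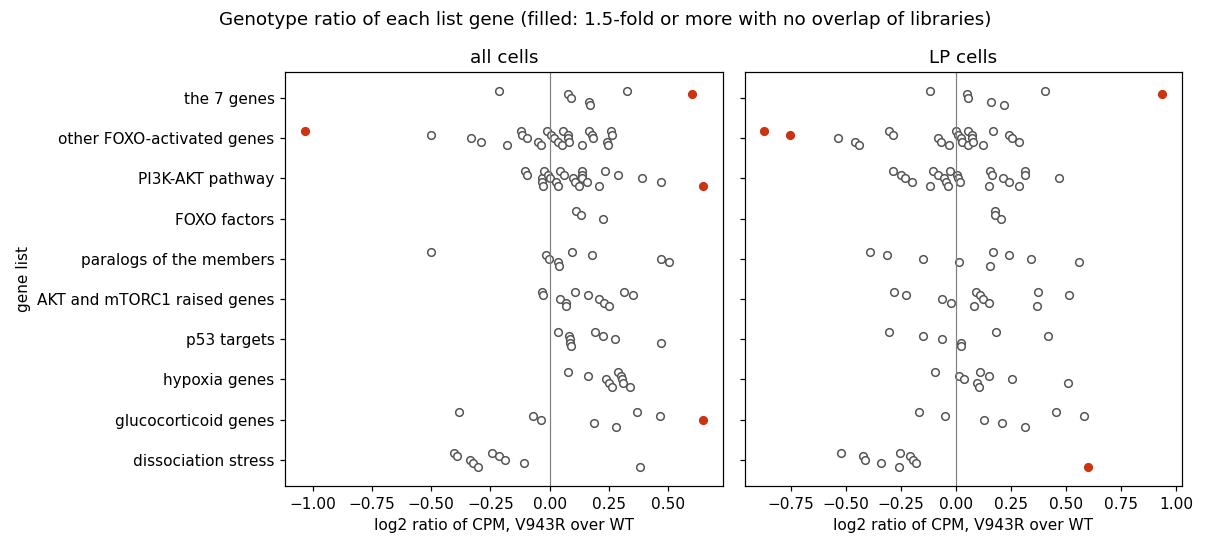
Log2 ratio of CPM, V943R over WT (horizontal axis), of each gene of each list (rows) in all cells and in LP cells; filled points are 1.5-fold or more with both V943R libraries beyond both WT libraries. Txnip is the filled point of the 7 genes in both panels, Erbb3 is the lowest point among the other FOXO-activated genes, and the stress list lies to the left of 0 but for Hspa1b.

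Lists that stand for other inputs to these genes are given by their counts, beside the 31.8% of all genes higher and 22.5% lower by the looser call over all cells. Of 9 targets of p53, which also activates Sesn1, 0 were called and the looser call took 7 as higher and 0 as lower, with a median log2 ratio of 0.09. Of 10 hypoxia genes 0 were called and 8 were higher by the looser call, with a median of 0.28. Of 8 glucocorticoid-induced genes Sgk1 was called, and the looser call took 5 as higher and 2 as lower, with a median of 0.23; Tsc22d3 was at 23.8 CPM in WT and 32.9 CPM in V943R. Of 10 genes of tissue dissociation stress, such as Fos, Jun and Atf3, 0 were called over all cells and 8 were lower by the looser call, with a median of -0.27. In LP the looser call took 23.1% of all genes as higher and 18.1% as lower. There it took 1 of 7 p53 targets with enough UMIs as higher and 1 as lower, with a median of 0.02. Of 9 hypoxia genes it took 2 as higher and 0 as lower, with a median of 0.10. Of 7 glucocorticoid-induced genes it took 4 as higher and 2 as lower, with a median of 0.21. Of 10 stress genes it took 1 as higher and 9 as lower, with a median of -0.26. The part of these lists in the Txnip difference was not tested. In LP and LI the heat-shock gene Hspa1b of the stress list was called higher. It lost the call without WT library A in both classes and without either V943R library in LP.

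Across 44 sums of UMIs (11 luminal clusters in each of the 4 libraries), the levels of Irs2, Sesn3, Cited2 and Ccng2 went together, as log2(CPM + 1): Pearson's r was 0.94 for Irs2 with Cited2, 0.91 for Irs2 with Sesn3 and 0.79 for Irs2 with Ccng2. Txnip followed both Irs2 (0.64) and Pik3ip1 (0.60), while Irs2 and Pik3ip1 had r = 0.12 with each other. Sesn1 reached at most 0.35 with any of the 6. The points share libraries and the clusters were drawn from the same values, so these are descriptions.

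Among 9688 genes, those most like each of the 7 by the same measure were Apobec3 and Apoe for Irs2 (both r = 0.96), Clta (0.96) and Mpzl1 (0.95) for Sesn3, and Mgst1 and Lcn2 for Cited2 (both 0.97). Ccng2 was most like Snx1 (0.87) and Arl4c (0.86), and Pik3ip1 most like Pdzk1ip1 (0.87) and Klc4 (0.86). Txnip was most like Tsc22d3 (0.89) and Syngr1 (0.86). For Sesn1 the closest were AC155256.1 (0.58) and Specc1l (0.55), which at this depth is a weak likeness.

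Cells with UMIs of 3 or more of the 7 genes were most frequent in LI, at 19.4% of WT and 26.4% of V943R cells, against 9.53% and 13.2% in LP and 1.29% and 2.17% in ML. Of WT cells 51.7% had none and 3.83% had UMIs of 3 or more, and of V943R cells 43.0% and 6.35%. These shares were taken without thinning, so depth enters them along with level, and its part was not tested. The V943R cells had a median of 3840 UMIs against 3400 in WT. The classes differed in depth too, with medians of 5620 UMIs in WT and 6849.5 in V943R LI cells. In LP the medians were 2018 and 2067 UMIs, and in ML 3508 and 4069.5, so LP held larger shares than ML at a lower depth. The place of LI in this order cannot be told apart from its depth. The gene models of Txnip and of the antisense gene Gm15441 overlap on opposite strands, and the table holds 331 UMIs of the latter beside 6774 and 8781 of Txnip. Sesn1 overlaps 9930024M15Rik on the same strand, with 254 UMIs in the table, and reads of these 2 could be assigned to either.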

How the data were processed

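Single-cell 3' libraries (10x Chromium v2) of sorted luminal cells were measured, 2 libraries per genotype from 1 pool of 3 mice each. The labels' processing notes name CASAVA 1.8, bcl2fastq 2.20 and GSNAP 2013-10-10 with GRCm38, and the study clustered cells in Partek Flow at a Seurat resolution of 0.6; the use of strand in counting is not given in the sources used here. The deposited signal values are UMI counts that the authors multiplied by 1 factor per cell. Dividing each cell's values by its smallest nonzero value returned whole numbers within 0.02 for 100% of 60853305 values, and these were summed as UMIs over the cells of a library and group. Cell groups and clusters are the authors' annotation. No label pairs library codes with replicate numbers, so libraries are called A and B within a genotype. Doublets were not removed and no caller was run.

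Levels are CPM with exact Poisson intervals, ratios have exact conditional binomial intervals, and shares have Clopper-Pearson intervals, all at 95%. Differences of log2 ratios between classes have normal intervals from the counts. With 1 pool per genotype no test was run. The 7 genes and the gene lists were chosen with earlier results of these data known. The genes named are the 7, at most 4 genes of each list that were called over all cells or in a class, the 2 genes most like each of the 7, and Erbb3; other list genes given as examples were chosen after their values were seen. The values of 2 list genes are not reported here. Of 52636 gene IDs, 52403 were in GENCODE M21. Promoters are those of RefSeq on GRCm38.p6. Python 3.11.15, numpy 2.4.6, scipy 1.17.1 and matplotlib 3.10.9 were used.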

Additional observations from a re-analysis of the deposited data

Results flagged for a closer look

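Cited2 had log2 ratios of opposite sign between genotypes in different luminal classes, with both V943R libraries on 1 side of both WT libraries each time. Its log2 ratio of V943R over WT was -0.38 in LI and -0.12 in LP cells, where the V943R libraries were lower, and 0.23 in ML cells, where they were higher. Not every cluster within LP and ML followed its class. The difference between classes was not tested, since each genotype was 1 pool of mice.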

How the results depend on the processing

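Each log2 ratio was recomputed under up to 18 alternatives; leaving out the cells with most UMIs or clusters 2, 5 and 6, and the count of genes over the 11 luminal clusters, were chosen after seeing the data. The Txnip ratio over all cells stayed above 0 in each, between 0.48 and 1.11, and so did the LP ratio, between 0.85 and 1.09. Leaving out 1 library at a time gave over all cells 0.52 to 0.70 for Txnip, 0.21 to 0.44 for Irs2, 0.081 to 0.26 for Sesn3, -0.00036 to 0.16 for Sesn1, 0.0058 to 0.17 for Cited2, 0.013 to 0.29 for Ccng2 and -0.31 to -0.13 for Pik3ip1. As a mean over cells the ratio was 0.80 for Txnip, 0.23 for Cited2, 0.24 for Sesn1 and 0.27 for Sesn3. With the same cluster shares in both genotypes it was -0.11 for Cited2, 0.14 for Irs2 and 0.064 for Sesn3. Without cluster 11 it was -0.013 for Cited2, and without the 6% of cells with most UMIs 0.65 for Txnip. In 5 bins of cells by UMIs, those outside the main interval were, in bin 1, Txnip 1.11, Sesn1 0.75, Sesn3 0.37, Ccng2 0.35, Cited2 0.34 and Pik3ip1 0.036; in bin 2, Irs2 0.79, Sesn3 0.55, Cited2 0.46, Ccng2 0.37 and Sesn1 0.36; in bin 3, Txnip 0.70, Cited2 0.49, Irs2 0.48, Ccng2 0.32, Sesn3 0.27 and Pik3ip1 -0.050; in bin 4, Sesn3 0.043 and Cited2 -0.018; in bin 5, Txnip 0.48, Sesn3 0.086 and Cited2 -0.11. The cause was not tested.

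The numbers of all genes called, in the order all cells, LP, LI, ML and cluster 11, were 532, 250, 298, 434 and 276 higher and 193, 68, 108, 238 and 324 lower. A minimum of 20 UMIs gave 967, 627, 638, 812 and 586 higher and 404, 218, 327, 486 and 656 lower. A minimum of 100 UMIs gave 297, 107, 139, 250 and 106 higher and 115, 21, 48, 134 and 127 lower. A lower fold threshold gave 2086, 958, 1041, 1724 and 1109 higher and 630, 402, 608, 832 and 829 lower. A threshold of 2-fold gave 68, 22, 38, 57 and 20 higher and 40, 6, 14, 56 and 83 lower. Leaving out 1 library at a time gave 382 to 848, 151 to 449, 161 to 479, 321 to 703 and 113 to 599 higher and 154 to 319, 49 to 178, 105 to 271, 153 to 372 and 169 to 750 lower. Scaling by the median ratio or dropping the rule on libraries kept each number within 1.5 times. No paired analysis was possible because the values come from no test and the library codes carry no replicate number. Depth limits the genes with few UMIs: the interval was -0.05 to 0.86 for Sesn1 in LP and -0.79 to 1.35 for Irs2 in cluster 11.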
